A study of Drosophila melanogaster with 8 samples.

Results

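The juvenile hormone genes of Drosophila melanogaster described here are the synthesis enzyme gene jhamt, the degradation genes Jhe, Jhedup, Jheh1, Jheh2 and Jheh3, the receptor genes Met and gce, and the binding protein gene Jhbp7. Of these 9 genes 7 had a probe set whose platform annotation names that gene alone, on 8 probe sets of the 18769 analysed, and Jheh1 and Jheh3 were not analysed here. They are 7 of the 11982 genes with such a probe set, and they cover only a part of the pathway. Where a gene had several probe sets, the one brightest on average over the 8 arrays (mean log2 intensity) was used, so mean levels are given as a description. The genes were chosen by function with the difference of Jhbp7 between the genotypes already known from these arrays, so that difference is likewise a description and supports nothing further.

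RNA was taken from single white prepupae at 0 hours after puparium formation, and each of the 8 one-colour Affymetrix arrays carried 1 animal. Each sex of each genotype had 2 animals. The controls were w1118, a white-eyed laboratory stock, and the other animals were double mutants for bap170 and bap180 (named polybromo in the annotation), which encode subunits that set PBAP apart from the other form of the Brahma chromatin remodelling complex. The labels name no alleles and no genetic background for the mutants, so the mutations and any other difference between the stocks cannot be told apart.

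Juvenile hormone is a sesquiterpenoid made in the corpora allata from products of the mevalonate pathway, and the methyltransferase encoded by jhamt acts at the end of that route. In the larvae of many insects the hormone keeps moults larval, and its fall lets ecdysone start metamorphosis. It is carried by binding proteins, broken down by an esterase and by epoxide hydrolases, and sensed by the paired receptors Met and gce, which are bHLH-PAS transcription factors. Jhbp7 belongs to the takeout family of secreted proteins, named for their likeness to haemolymph juvenile hormone binding proteins of moths. Whether Jhbp7 binds the hormone was not tested here. No sequence is printed, because the reference tables used here held none.

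The arrays bore out their labels. The log2 intensity of Bap170 was 6.88 to 7.35 in wild type and 5.69 to 6.09 in the mutants, and that of polybromo was 5.09 to 6.30 in wild type and 3.96 to 4.27 in the mutants. The summed intensity of 11 testis genes was 1410 to 2273 on the male arrays and 182 to 229 on the female arrays. Array medians were 4.80 to 4.87 (log2) in females and 5.05 to 5.13 in males, so the arrays as deposited had unequal distributions. Arrays of 1 group correlated at r = 0.977 to 0.990 over all probe sets, and arrays of different groups at 0.912 to 0.979.

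Jhbp7 (probe set 1637900_at) was the only one of the 7 genes to differ between the genotypes by the test used here. In wild type females its log2 intensity was 8.50 and 8.53, and in wild type males 8.06 and 8.19. In double mutant females it was 5.26 and 5.55, and in double mutant males 5.31 and 4.83. All 4 mutant arrays lay far below all 4 wild type arrays, as for 2.98% of all probe sets, with a gap wider than the range within either genotype.

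The mean of Jhbp7 was 8.32 ± 0.23 (log2, SD, n = 4) in wild type and 5.24 ± 0.30 in the mutants. The difference, averaged over the sexes, was -3.09 ± 0.14 (log2, SE, 95% interval -3.40 to -2.77), an 8.49-fold lower signal, with a limma adjusted p of 0.0001 over all probe sets. In the wild type Jhbp7 was brighter than 80.8% to 83.6% of probe sets on each array, and in the mutants than 47.0% to 57.5%. Among 11982 genes it was the 9th largest fall.

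The fall was of like size in both sexes. Jhbp7 fell by 3.12 ± 0.19 in females (SE, n = 2 per group, limma adjusted p = 0.00101) and by 3.05 ± 0.19 in males (adjusted p = 0.0011). The male effect minus the female effect was 0.06 ± 0.27 (95% interval -0.58 to 0.70, limma adjusted p = 0.967). From highest to lowest the groups stood as wild type females, wild type males, mutant females and mutant males. Both wild type males lay below both wild type females, while the sexes of the mutants overlapped. With 2 arrays against 2, the share of all probe sets that split so was not counted. Males minus females did not pass within either genotype, at -0.39 ± 0.19 in wild type (limma adjusted p = 0.309) and at -0.33 ± 0.19 in the mutants (adjusted p = 0.428).

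**Figure D1:**
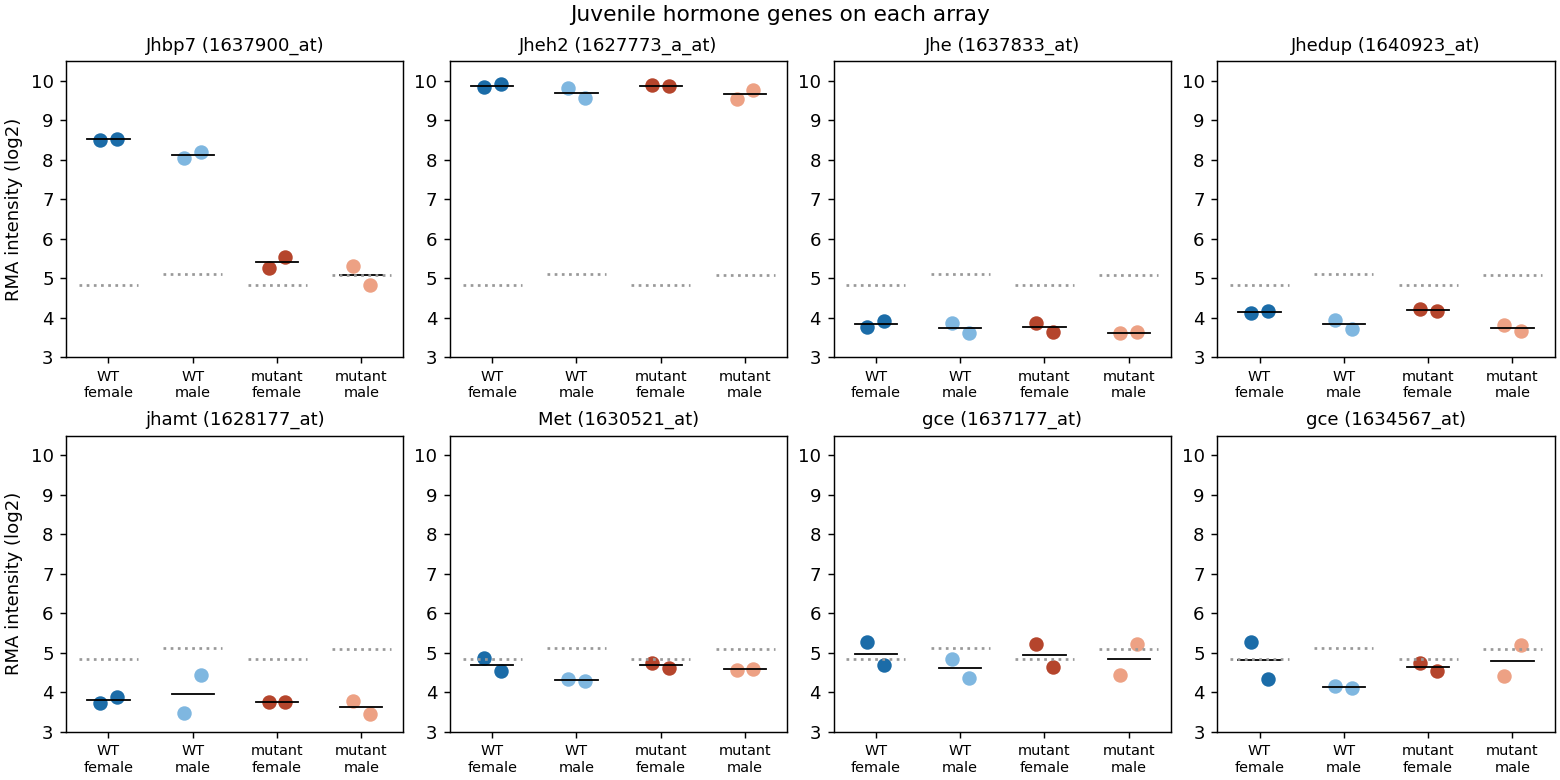
Each panel shows 1 probe set, with the RMA intensity (log2) of every array as a point, the mean of each group of 2 arrays as a black line and the mean of their array medians as a dotted line. Jhbp7 drops from between 8.06 and 8.53 in wild type to between 4.83 and 5.55 in the mutants, Jheh2 stays between 9.55 and 9.91, and Jhe, Jhedup and jhamt lie below the array medians.

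Of the 7 genes 1 fell, 0 rose and 6 did not pass, against 2.79% of all probe sets called for the genotype effect (1.47% lower and 1.32% higher). Read by main probe sets, as the 7 genes and the lists below are, 3.66% of all 11982 genes were called. The median difference over the 7 genes was -0.02, and over all probe sets -0.01. In females and in males, too, Jhbp7 fell and the other 6 did not pass, where 0.943% and 1.05% of probe sets were called.

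Jheh2 (1627773_a_at) encodes an epoxide hydrolase, which opens the epoxide ring of the hormone. Its log2 intensity was 9.85 and 9.91 in wild type females, 9.82 and 9.57 in wild type males, 9.88 and 9.86 in mutant females and 9.55 and 9.78 in mutant males. The genotypes overlapped within each sex, and every array lay within 0.36 of every other. The difference between genotypes was -0.02 ± 0.10 (SE, 95% interval -0.26 to 0.23, limma adjusted p = 0.986). It was brighter than 90.9% to 93.3% of the probe sets on each array, and it was the only one of the 6 genes without a call whose signal lay above the median of every array.

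Jhe (1637833_at) encodes the juvenile hormone esterase, which cleaves the methyl ester of the hormone. Its log2 intensity lay between 3.61 and 3.90 on the 8 arrays, below the median of every array, and mutants and wild type overlapped. The difference was -0.10 ± 0.11 (SE, 95% interval -0.35 to 0.15, limma adjusted p = 0.852). Jhedup (1640923_at), a neighbouring duplicate of the esterase gene, lay between 3.67 and 4.22, with a difference of -0.02 ± 0.10 (95% interval -0.25 to 0.21, adjusted p = 0.986). Jhedup, too, lay below the median of every array, and the intervals bound the change in signal, not in transcript, at such levels.

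The synthesis gene jhamt (1628177_at) was as dim. Its log2 intensity was 3.74 and 3.88 in wild type females, 3.48 and 4.45 in wild type males, 3.74 and 3.75 in mutant females and 3.78 and 3.46 in mutant males. Replicate 2 of the wild type males stood above the rest, and its group held both the highest value and 1 of the lowest. The difference between genotypes was -0.20 ± 0.21 (SE, 95% interval -0.70 to 0.30, limma adjusted p = 0.847), and 0.04 without that array. The arrays carried RNA of the whole animal and not of the corpora allata. In such samples fewer cells of a type and less RNA per cell cannot be told apart, for this and every other gene.

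The receptor gene Met (1630521_at) had log2 intensities of 4.86 and 4.53 in wild type females, 4.33 and 4.29 in wild type males, 4.74 and 4.62 in mutant females and 4.58 and 4.60 in mutant males. Met lay above the array median on only 1 of the 8 arrays. Both mutant males lay above both wild type males, while the females of the genotypes overlapped. With 2 arrays against 2, the share of all probe sets that split so was not counted. The differences were 0.27 ± 0.15 in males (SE, limma adjusted p = 0.513) and -0.01 ± 0.15 in females (adjusted p = 0.995), and they did not differ from each other beyond their error (0.29 ± 0.21, adjusted p = 0.79). Averaged over the sexes, Met differed by 0.13 ± 0.10 (95% interval -0.12 to 0.38, adjusted p = 0.765).

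Its paralogue gce was read by 2 probe sets. On the main one (1637177_at) the log2 intensity was 5.27 and 4.69 in wild type females, 4.83 and 4.37 in wild type males, 5.22 and 4.65 in mutant females and 4.43 and 5.23 in mutant males. The second probe set (1634567_at) gave 5.28 and 4.34, 4.17 and 4.10, 4.73 and 4.53, and 4.40 and 5.19 in the same order. On both, replicate 1 of each female group and replicate 2 of the mutant males were the 3 highest arrays, and the genotypes overlapped.

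The genotype difference of gce was 0.09 ± 0.25 (SE, 95% interval -0.49 to 0.67, limma adjusted p = 0.964) on the main probe set and 0.24 ± 0.25 (adjusted p = 0.843) on the second. The probe sets correlated at r = 0.84 over the 8 arrays, which they share.

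Among the other members of the takeout family, from a list of 24 symbols, 19 had a value. Of these 1 rose in the mutants, 0 fell and 18 did not pass, against 2.79% of all probe sets called, and the median difference was -0.04, against -0.01 over all. Most of the 19 lay below the median of every array, so this count and median say little of their transcripts. The gene that rose was CG11854 (1630761_at), for which no role is stated here. Its log2 intensity was 7.88 and 7.94 in wild type females, 6.73 and 7.09 in wild type males, 8.82 and 9.19 in mutant females and 9.45 and 8.86 in mutant males.

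CG11854 thus moved opposite to Jhbp7, with all 4 mutant arrays above all 4 wild type arrays, as for 3.36% of all probe sets. The difference was 1.67 ± 0.17 (log2, SE, 95% interval 1.27 to 2.07, limma adjusted p = 0.00421). It was 2.24 ± 0.24 in males (adjusted p = 0.0103) and 1.10 ± 0.24 in females (adjusted p = 0.132), and the test of the difference between the sexes did not pass (1.15 ± 0.34, adjusted p = 0.766).

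**Figure D2:**
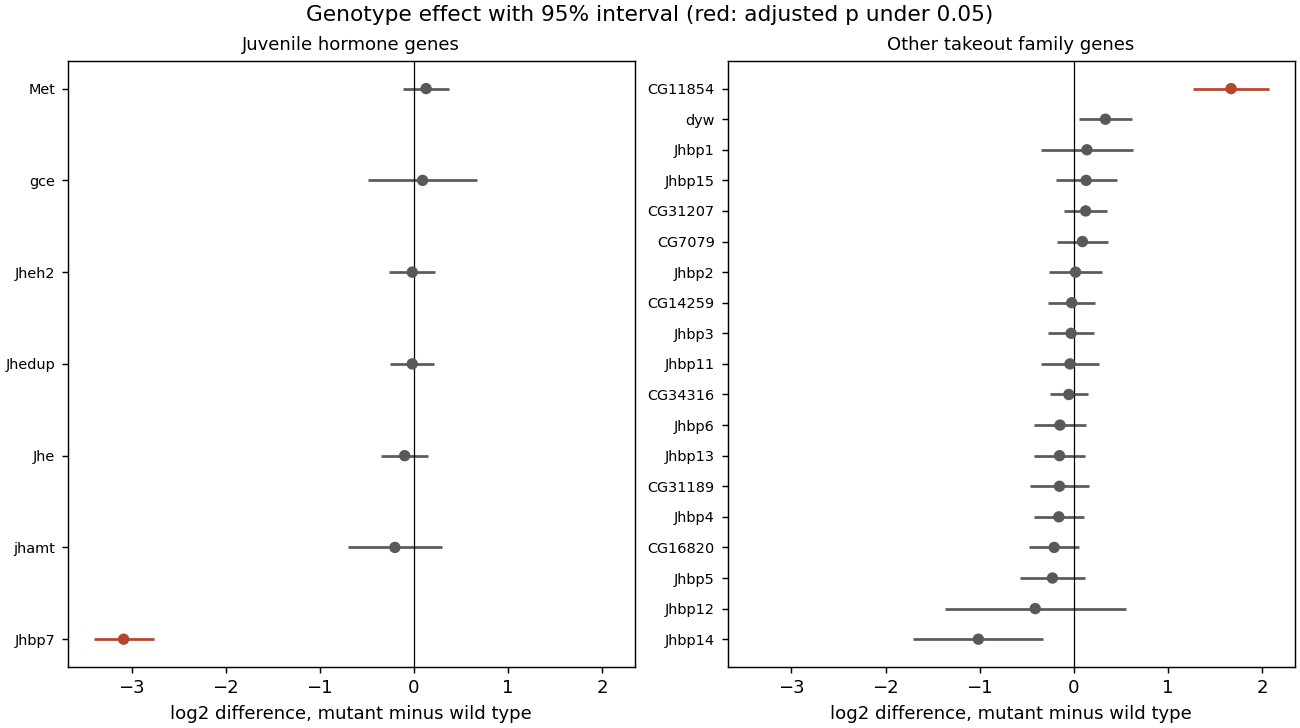
Points are log2 differences of double mutants minus wild type averaged over the sexes, lines are 95% intervals, and red marks an adjusted p under 0.05. Jhbp7 at -3.09 and CG11854 at 1.67 are the only called genes of the 7 juvenile hormone genes and of the 19 other takeout family genes.

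Jhbp14, another family member, averaged 6.08 ± 0.44 in mutants and 7.10 ± 0.54 in wild type (log2, SD, n = 4). Its difference of -1.01 ± 0.29 did not pass (limma adjusted p = 0.164), and it passed with the replicate number as a block (adjusted p = 0.0327). Also without a call were dyw, or daywake, a takeout family gene that acts on daytime sleep (0.34 ± 0.12, adjusted p = 0.268), CG16820 (-0.21 ± 0.11, adjusted p = 0.531) and Jhbp5 (-0.23 ± 0.15, adjusted p = 0.646). Like others of the list, dyw and CG16820 lay below the median of every array, and dim signal limits what can be said of such genes. Jhbp5 overlaps Jhbp4 by 86 bases in the Release 6 annotation, and which of the genes its probes read was not tested.

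Jhbp7 and CG11854 lie close together on the right arm of chromosome 3, with only the family's founding gene, to, between them, and to is not analysed here. Next to CG11854 lies bam, a germline differentiation gene, which also rose (0.56 ± 0.09, limma adjusted p = 0.025) from a dim mean of 3.66 to 4.23. Farther on, Nup37, a nuclear pore gene, did not pass (0.23 ± 0.17, limma adjusted p = 0.714). The annotations of CG11854 and bam overlap by 224 bases, and whether their probes read shared transcripts was not tested. On the other side of Jhbp7 the 5 nearest genes did not pass. Their differences were -0.14 for Sil1, -0.36 for Cad96Cb, -0.06 for Alg9, 0.02 for CG31103 and -0.22 for CG31106, with standard errors of 0.10 to 0.16.

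The mutated gene polybromo is on the same arm, with 88 protein-coding genes between it and Jhbp7. Of these 78 had a value, of which 3 rose (CG13639, CG11168 and Hr96), 0 fell and 75 did not pass. That is 3.85% called, against 3.66% of all 11982 genes, and the median difference was 0.05. The share called in this stretch was near that of all genes.

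**Figure D3:**
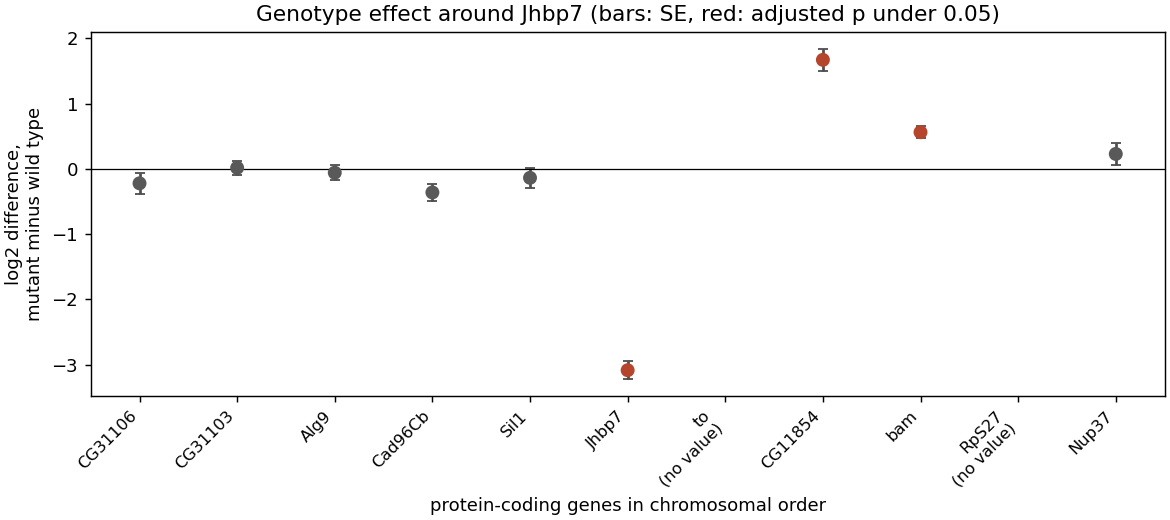
Protein-coding genes are set out in chromosomal order around Jhbp7, with the log2 difference of double mutants minus wild type as points, standard errors as bars and red for an adjusted p under 0.05. Jhbp7 falls, CG11854 and bam on its one side rise, Nup37 beyond them stands at 0.23 without a call, and the 5 genes on its other side lie between -0.36 and 0.02.

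The genes whose profile over the 8 arrays was most like that of Jhbp7 were Gnpnat (r = 0.994), QC (r = 0.991), Jon65Aii (r = 0.991), CG42846 (r = 0.991) and hpRNA:CR33940 (r = 0.990), among 6196 genes with a mean log2 intensity of at least 6. Gnpnat encodes an enzyme of amino sugar synthesis, QC a glutaminyl cyclase, Jon65Aii a gut serine protease, and hpRNA:CR33940 a hairpin RNA. Their differences were -1.43 for Gnpnat, -2.55 for QC, -2.96 for Jon65Aii, -5.65 for CG42846 and -2.86 for hpRNA:CR33940, and all 5 are lower in the mutants because the measure favours such genes. These correlations share the 8 arrays and are a description. No other member spanned 1 log2 unit over the arrays on its main probe set, so no such list was drawn for them.

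Beside Jhbp7, summed intensities of the prepupal stage, hemocyte and testis lists did not overlap between the genotypes within a sex. Those of the midgut and fat body lists overlapped. Each comparison within a sex sets 2 arrays against 2, and how often sums of other genes split so was not counted. Of the 8 midgut markers 4 were called, against 3.66% of all genes. In the other lists most single markers did not pass. Such sums are carried by the brightest probe sets. The summed intensity of 13 prepupal stage genes, of 15 listed, was 28873 to 34817 on wild type arrays and 22279 to 25171 on mutant arrays, without overlap. Of these genes 6 had a higher and 7 a lower mean log2 in the mutants, with a median difference of -0.04, and 1 (ImpE2) fell. In limma 7 of the 13 had an unadjusted p under 0.05 for genotype, against 13.3% of all probe sets. The sum of 10 hemocyte markers was 2690 to 3532 in wild type females against 4660 to 5370 in mutant females, and 1736 to 1933 against 3049 to 3273 in males. Of the 10 markers 5 were higher and 5 lower in the mutants, 1 (eater) rose and 0 fell, and Hml, among the lower, stood at -0.48 ± 0.20 (limma adjusted p = 0.35). The sum of 8 midgut markers was 19005 to 23583 and 18269 to 27990, with 4 rises, and that of 5 fat body markers 58263 to 66197 and 53444 to 65551, with 0 calls. The sum of 11 testis genes was 1931 to 2273 in wild type males against 1410 to 1733 in mutant males, and 182 to 183 against 229 in females, with 5 higher and 6 lower and rises of vis and bam. An unadjusted p under 0.05 in limma was held by 5 of the 10 hemocyte and 5 of the 8 midgut markers. It was held by 1 of the 5 fat body and 4 of the 11 testis genes. On this scale no marker can read 0. The part of these lists in the fall of Jhbp7 was not tested.

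Upstream of jhamt, the mevalonate pathway and the later synthesis steps were covered by 6 of 8 listed genes. None was called for the genotype effect by limma, against 2.79% of all probe sets, and 0 of the 6 had an unadjusted p under 0.05, against 13.3%. The median difference was 0.08. Fpps, the farnesyl pyrophosphate synthase gene, was nearest to a call (-0.26 ± 0.13, SE, limma adjusted p = 0.469). The others named were Hmgs, which encodes HMG-CoA synthase (0.14 ± 0.10), the cytochrome P450 gene Cyp6g2 (0.24 ± 0.18) and the decarboxylase gene Mvd (0.19 ± 0.15).

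Genes that respond to the hormone or work with its receptors were covered by 9 of 11 listed. None was called for genotype by limma, against 2.79% of all probe sets, while 1 had an unadjusted p under 0.05, against 13.3%. Kr-h1, the zinc finger gene that the receptors switch on, was 8.27 and 8.50 in wild type females, 8.42 and 8.75 in wild type males, 8.44 and 8.96 in mutant females and 8.78 and 9.07 in mutant males (log2 intensity). The genotypes overlapped, and its difference was 0.33 ± 0.16 (SE, 95% interval -0.05 to 0.71, limma adjusted p = 0.468). The coactivator gene tai differed by 0.46 ± 0.13 (adjusted p = 0.17), with 0.91 ± 0.19 in males (adjusted p = 0.103) and 0.01 ± 0.19 in females. The amino acid transporter genes mnd (-0.32 ± 0.19, adjusted p = 0.593) and JhI-21 (-0.19 ± 0.11, adjusted p = 0.601), the latter named for its induction by the hormone, did not pass. In the test of the genotype effect between the sexes 0 of the 9 passed, while tai (0.90 ± 0.27), JhI-21 (0.84 ± 0.23) and JhI-26 (-1.25 ± 0.35, named after its values were seen) had an unadjusted p under 0.05, each with a limma adjusted p of 0.766. Over all probe sets 6.31% had an unadjusted p under 0.05 in that test. JhI-26 lay above the array median on only 1 of the 8 arrays, and dim signal limits what can be said of it.

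Among allatostatins, neuropeptides some of which restrain hormone synthesis in other insects, and their receptors, 4 of 8 listed genes had a value, and 1 fell, 0 rose and 3 did not pass, against 1.47% of all probe sets called lower and 1.32% higher. AstC, which encodes allatostatin C, an inhibitor of juvenile hormone synthesis in moths, was 5.49 and 6.20 in wild type females, 5.84 and 5.89 in wild type males, 4.59 and 4.93 in mutant females and 4.61 and 4.58 in mutant males (log2 intensity). Every mutant array lay below every wild type array, as for 2.98% of all probe sets.

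AstC fell by 1.18 ± 0.17 (SE, 95% interval -1.58 to -0.78, limma adjusted p = 0.0165). Within 1 sex it did not pass, at -1.09 ± 0.24 in females (adjusted p = 0.136) and -1.27 ± 0.24 in males (adjusted p = 0.078). The call ended, with the difference between -1.19 and -1.09, without either wild type male (adjusted p = 0.0503 and 0.0519 for replicates 1 and 2) or without replicate 1 of the mutant females (0.0659). On replicate 1 of the mutant females and on both mutant males AstC lay below the array median. Dim signal there limits what can be said of the size of its fall. The myoinhibitory peptide gene Mip averaged 5.99 ± 0.12 in mutants and 6.52 ± 0.35 in wild type (log2, SD, n = 4) and did not pass (-0.54 ± 0.14, adjusted p = 0.122). The receptor genes AstC-R1 (-0.22 ± 0.13) and SPR (0.02 ± 0.08) did not pass either, and both lay below the median of every array.

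**Figure D4:**
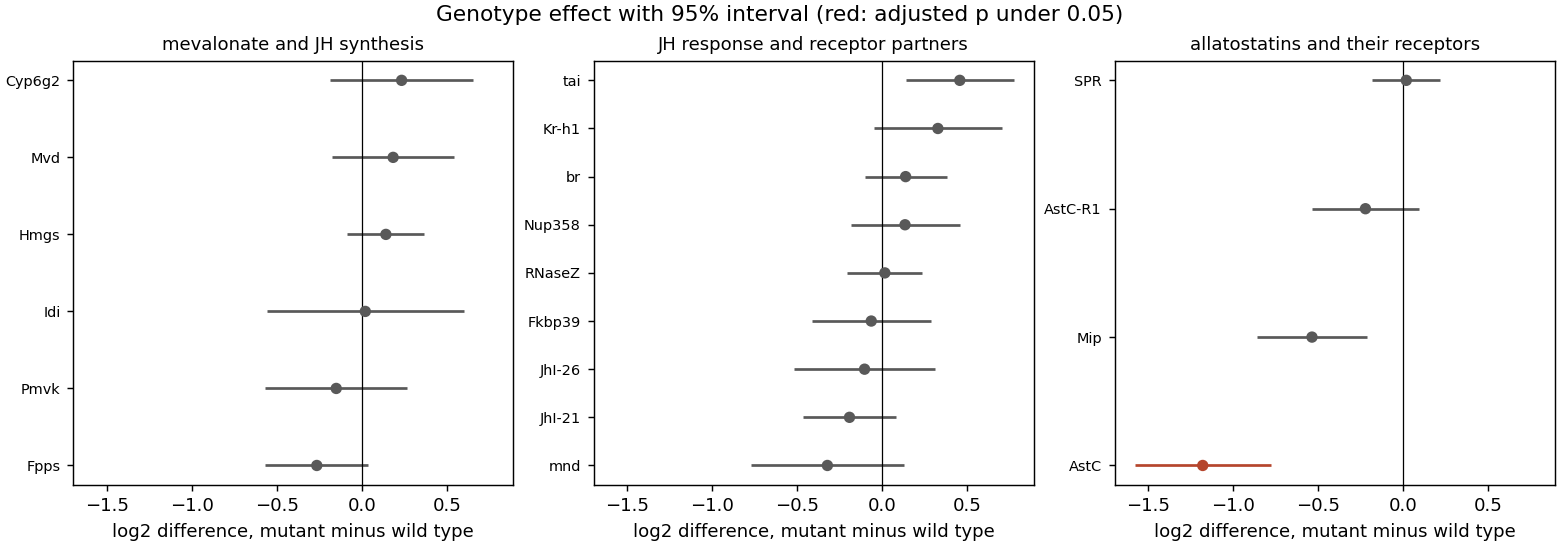
Points are log2 differences of double mutants minus wild type averaged over the sexes, lines are 95% intervals and red marks an adjusted p under 0.05, for genes of hormone synthesis, of hormone response and of the allatostatins. AstC at -1.18 is the only called gene of the 19 shown.

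Between the sexes, 0 of the 7 juvenile hormone genes passed in limma, against 10.1% of all probe sets, and 2 (Jhedup and Jhbp7) had an unadjusted p under 0.05, against 24.6%. Within wild type and within the mutants 0 of the 7 passed as well, against 7.9% and 6.28% of all probe sets. Differences here are males minus females, averaged over the genotypes. The median over all probe sets was -0.13, so differences between the sexes are read against that shift. Jhedup had the lowest p, with 4.11, 4.18, 4.22 and 4.18 in the 4 females and 3.95, 3.71, 3.82 and 3.67 in the 4 males (log2 intensity). Every male lay below every female, as in 9.5% of all probe sets, and the difference was -0.38 ± 0.10 (SE, limma adjusted p = 0.0553), or -0.25 relative to the shift.

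For Jheh2, too, each male lay below each female, by 0.20 on average (-0.20 ± 0.10, limma adjusted p = 0.282), or -0.06 relative to the shift. The difference of Jhbp7 was -0.36 ± 0.14 (adjusted p = 0.163), of gce -0.24 ± 0.25 (adjusted p = 0.553), of Met -0.23 ± 0.10 (adjusted p = 0.222), of Jhe -0.12 ± 0.11 (adjusted p = 0.475) and of jhamt 0.01 ± 0.21 (adjusted p = 0.97). Met and gce are X-linked, and their differences relative to the shift were -0.10 each.

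The calls between the sexes varied with the settings. Jhedup passed also with unchanged scaling, namely with a variance trend, with a robust trend, with the mean of probe sets and without replicate 1 of the wild type males. With every array centred on its own median, the shift of all probe sets became -0.40, 66.7% of them were called, and 5 of the 7 genes passed as lower in males (Jhbp7, Jhe, Jhedup, Jheh2 and Met). Of all calls between the sexes 1518 were higher and 376 lower in males on the deposited values, 1444 higher and 11078 lower after centring, and 1586 higher and 1890 lower after quantile normalization. After repeated quantile normalization only Jhbp7 passed of the 7 (-0.45, limma adjusted p = 0.0329). The sign of jhamt turned with the scaling, from 0.01 as deposited to -0.25 after centring and 0.10 after quantile normalization, without a call in any. The other 6 genes kept a lower value in males in all 3 scalings. Relative to the shift, the 5 genes other than Jhe and jhamt stayed lower in males in all 3, while Jhe and jhamt were higher.

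**Figure D5:**
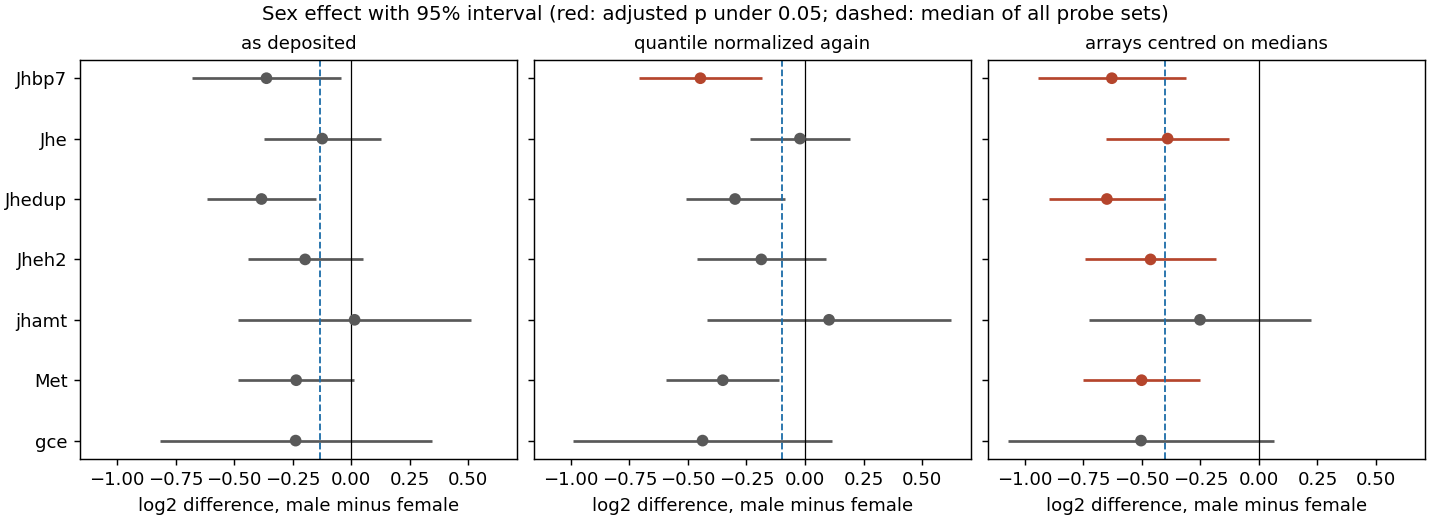
Points are log2 differences of males minus females averaged over the genotypes, lines are 95% intervals, the dashed line is the median of all probe sets and red marks an adjusted p under 0.05. With deposited values 0 of the 7 genes are red, after repeated quantile normalization 1 and after centring each array on its median 5, while the dashed line moves between -0.10 and -0.40.

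The genotype effect did not differ between the sexes for any of the 7 genes in limma, where 0 of all probe sets passed and 6.31% had an unadjusted p under 0.05. The estimates of the 7, male effect minus female effect, lay between -0.27 (jhamt) and 0.29 (Met), and 0 of them had an unadjusted p under 0.05. With 2 animals per group the intervals are wide, from -1.27 to 0.72 for jhamt and from -0.89 to 1.44 for gce, so sizeable differences between the sexes would not have been detected.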

How the data were processed

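Total RNA of single animals was labelled as biotinylated cRNA and hybridised to 1-colour arrays, per the labels' protocols. The deposited intensity values are on a linear scale and come from RMA according to the submitters' notes. Which software made them, and whether they were scaled afterwards, is not given in the sources used here. Of 18952 probe sets 183 controls were left out. The remaining 18769 were taken to log2, of which 13647 carry 1 gene symbol, 402 several and 4720 none in the platform annotation. Gene order came from the Release 6 RefSeq table, and no coordinates are printed because the files name no build.

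Differences were fitted with limma (version 3.58.1 in R 4.3.3) on the 4 group means, with 4 residual and 3.03 prior degrees of freedom and Benjamini-Hochberg adjustment over all probe sets at 0.05. The fit was tested on simulated data. Groups came from the sample titles. The number of arrays limits the precision, and each array is 1 animal.

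The members and gene lists were chosen with earlier results of these data known. Named beside the members were called genes of each related list, up to 4 more by lowest p for genotype, and the 5 genes whose profile was most like that of Jhbp7. Genes outside this rule were chosen after their values were seen. They were bam, Nup37, vis, Hml, JhI-26, br, ImpE2 and eater. The 5 genes beside Jhbp7 and the 3 genes between polybromo and Jhbp7 were chosen so as well. Alternatives were 2 scalings, an offset of 16, 2 filters on dim probe sets, 2 variance priors, the mean of probe sets, the replicate block, array weights, a fold threshold and the omission of each array.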

Additional observations from a re-analysis of the deposited data

How the results depend on the processing

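Jhbp7 was called for the genotype effect in all 19 alternatives, between -3.20 and -2.64 (limma adjusted p up to 0.00184), and so was CG11854, between 1.52 and 1.82. Of 861 recomputed member differences 847 kept their side of the threshold, 0 lost a call and 14 gained one, all of them between the sexes. Another 52 turned sign without a call in either setting. Members called between the sexes numbered 5 after median centring, and 3 within wild type and 1 within mutants, where centring moves all probe sets by its construction. They numbered 1 each after quantile normalization, with a variance trend, with a robust trend and with the mean of probe sets, and 0 to 1 with 1 array left out (Jhedup without replicate 1 of the wild type males). With the replicate number as a block 2 takeout family genes were called (CG11854 and Jhbp14), and no member's call changed. Replicate numbers mark separate animals. Their deviations correlated at 0.18 to 0.41 among wild type females, wild type males and mutant females, and at -0.30 to -0.18 between these and mutant males. With signs that differ, these values do not settle whether animals of the same number share anything. The allatostatin list held 2 calls after quantile normalization (Mip added), 0 with a mean log2 of at least 6, which removes AstC, and 0 to 1 with 1 array left out. Probe sets called for genotype numbered 524, and 260, 247, 290 and 259 without wild type female replicates 1 and 2 and mutant female replicates 1 and 2. Without wild type male replicates 1 and 2 and mutant male replicates 1 and 2 they numbered 376, 389, 488 and 408. Both filters on dim probe sets removed Jhe, Jhedup, jhamt, Met and gce. The cause was not tested for the other changes. Dim signal limits what can be said of those 5 genes.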
